A study of Saccharomyces cerevisiae with 16 samples.

Results

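The phosphate-regulated PHO genes of budding yeast are described here as a set of 10 genes among the 7125 in the expression table. They are the acid phosphatase genes PHO5 (YBR093C), PHO11 (YAR071W), PHO12 (YHR215W) and PHO3 (YBR092C), the alkaline phosphatase gene PHO8 (YDR481C), the phosphate transporter genes PHO84 (YML123C) and PHO89 (YBR296C), the regulator genes PHO81 (YGR233C) and SPL2 (YHR136C), and the polyphosphate gene VTC3 (YPL019C). The members were listed by name, and they were chosen from the phosphate pathway with their levels in these same samples already known. Their differences between groups are therefore given as a description, with a standard error and without a p-value.

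Yeast cells sense phosphate through the PHO pathway. When phosphate is plentiful, the cyclin-dependent kinase Pho85 with its cyclin Pho80 phosphorylates the transcription factor Pho4, which then leaves the nucleus. When phosphate runs short, the inhibitor Pho81 blocks that kinase, and Pho4 together with Pho2 switches on secreted phosphatases, high-affinity transporters and the enzyme complex that stores phosphate as polyphosphate in the vacuole. PHO5 in particular has long served as a model for how nucleosomes over a promoter are opened.

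The study asked how phosphorylation of threonine 11 on histone H3 shapes transcription, and total RNA of Saccharomyces cerevisiae was sequenced in 6 groups with 2 biological replicates each. All cells were grown in YPD, a rich medium that contains phosphate, so no group was starved of it by design. The control and serine groups carry the genotype wt in the labels and differ by treatment with serine, for which no dose or time is given. The WT group is also wt and serves as reference for CK2, a group whose genotype is given as ck2 and nothing more. In YBL574, per the strain list of the study, the chromosomal H3 and H4 genes are deleted and both histones come from a plasmid. In H3T11A that plasmid is replaced by one whose H3 has alanine in place of threonine 11. For YBL574 and H3T11A, each RNA extraction was turned into a pair of libraries, the first and the second technical library. These were averaged, which left 12 biological replicates from 16 libraries. The labels do not say whether the replicates were separate cultures, so the spread between them may be technical.

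Levels are given in RPKM, a count of reads divided by gene length and by library size. Read totals fitted from the steps between low values ran from 8774260 to 18078766 per library, and at these depths 3 reads in a gene of 1 kb equal 0.166 to 0.342 RPKM. The thinnest members were PHO89, with 15 to 276 recovered reads per library, and SPL2, with 20 to 88, while the other 8 had at least 96. Several measurements set the groups apart beyond their labels. CKA1, a catalytic subunit of casein kinase 2, lay at 57.5 and 66.9 RPKM in WT and at 0.064 and 0.068 in CK2. HHT1, an H3 gene, lay at 1087 and 1200 RPKM in YBL574 and at 6.78 and 9.78 in H3T11A. HHT2, the other H3 gene, lay at 224.5 and 261.4 in YBL574 and at 918.2 and 1159 in H3T11A. H3T11A and YBL574 thus also differed in which H3 gene had the higher level. In their comparison this cannot be told apart from the change of threonine 11. The strain list of the study names HHT2 on the plasmid of both strains, whereas a supplementary legend names HHT1 on that of YBL574. MFA2, a pheromone gene of a cells, was at 745.2 RPKM or more in WT, YBL574 and H3T11A and at 4.88 or less in control, serine and CK2. MF(ALPHA)1, the pheromone gene of α cells, was at 339.8 RPKM or more in control, serine and CK2 and at 5.21 or less in the other groups. CHA1, a serine-induced catabolic gene, was at 1.81 and 2.17 RPKM in control, at 796.1 and 820.2 in serine, and at 333.8 and 407.5 in WT. As read from these pheromone genes, the comparisons of CK2 with WT and of WT with control also cross mating type, which cannot be told apart from the labelled difference. Replicates of the same group differed more in H3T11A and CK2: over 6727 genes their log2 difference had an SD of 0.54 in the former and 0.48 in the latter, and between 0.25 and 0.30 in the other 4 groups.

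The upstream sequences are shown first because Pho4 recognises a short palindrome, CACGTG, and with lower affinity the related CACGTT. Both were searched on either strand in the 1000 bases before each start codon of the R64 genome, and the 2 motifs cannot overlap in the same bases. CACGTG was found before 9 of the 10 genes, and 10.8% of 5982 yeast promoters of that length held it. CACGTT was likewise found before 9 of the 10, against 28.5% of all promoters. PHO3 was the member with neither. Its window (chromosome II, 429102 to 430101) runs into the coding sequence of PHO5 (429548 to 430951), so only part of it lies between genes. In the shorter window from 250 bases before to 50 bases after the start, CACGTG was left in 1 member and in 2.9% of promoters, and CACGTT in 1 member and in 9.1%. One CACGTG site per gene is printed for the members with the palindrome, 5′ to 3′ on the strand of the gene, with the palindrome in capitals.
PHO5 (chrII:431191-431212, minus strand, 253 bases before the start codon): ggcactcaCACGTGggactagc
PHO11 (chrI:225169-225190, plus strand, 283 bases before): ggcgttcaCACGTGggtttaaa
PHO12 (chrVIII:551808-551829, plus strand, 283 bases before): ggcgttcaCACGTGggtttaaa
PHO8 (chrIV:1420771-1420792, minus strand, 534 bases before): cgtcgggcCACGTGcagcgatc
PHO84 (chrXIII:26201-26222, minus strand, 414 bases before): atttccagCACGTGgggcggaa
PHO89 (chrII:798832-798853, minus strand, 323 bases before): caatgcagCACGTGggagacaa
PHO81 (chrVII:958541-958562, minus strand, 344 bases before): tgttatggCACGTGcgaataag
SPL2 (chrVIII:375234-375255, minus strand, 147 bases before): gatgtacgCACGTGggcgaaag
VTC3 (chrXVI:517316-517337, minus strand, 311 bases before): gtcgcaagCACGTGcatgcgat

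SPL2 held 4 copies of CACGTG, at 361, 147, 90 and 31 bases before its start codon, and PHO84 held 3, at 880, 436 and 414 bases. VTC3 held 2, and the other 6 genes held 1 each. Among all promoters, 1.3% held 2 or more. The sites of PHO11 and PHO12 were letter for letter the same over the bases shown. A match describes these letters only, and binding was not measured in the libraries used here.

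**Figure D1:**
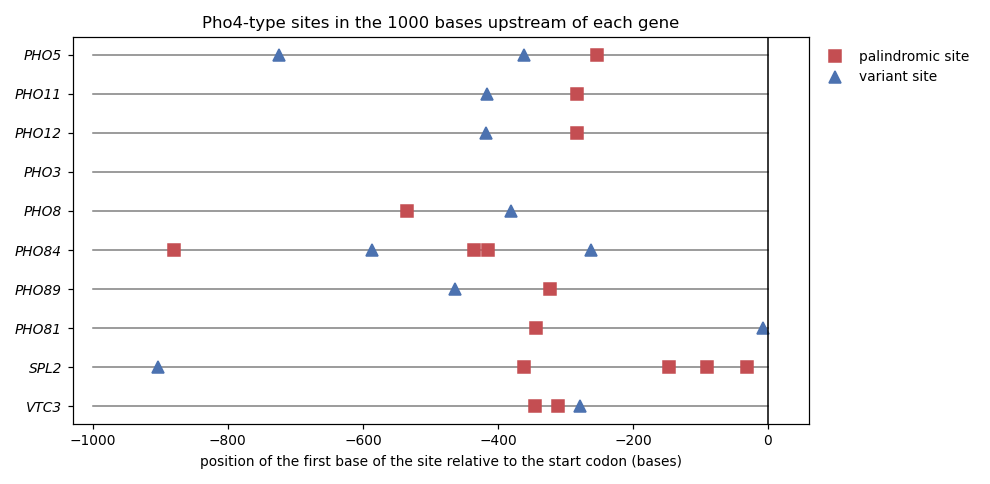
Positions of the palindromic site (red squares) and of its lower-affinity variant (blue triangles) in the 1000 bases before each start codon, in bases on the horizontal axis, with 1 row per gene. SPL2 has 4 palindromic sites and PHO84 has 3, and the row of PHO3 is empty.

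The acid phosphatase genes are near copies of each other, which decides how far their values can be read apart. Each has a coding sequence of 1404 bases. PHO11 on chromosome I (225460 to 226863, 3.4 kb from the chromosome end) and PHO12 on chromosome VIII (552099 to 553502, 9.1 kb from the end) differ at 4 bases, with an identical run of 786 bases, and 994 of the 1000 bases upstream are the same. Reads from PHO11 and PHO12 can hardly be assigned to one or the other, and how the counting treated them is not given in the sources used here. PHO5 (chromosome II, 429548 to 430951) and its neighbour PHO3 (427698 to 429101) differ at 189 bases, or 86.5% identity, with no identical run longer than 98 bases. Their values had opposite signs in serine minus control and were both lower in CK2 minus WT. Reads within an identical run could come from either gene, and how the counting treated them is not given. Reads that cover a base at which the genes differ can be told apart. The 60 coding bases at which PHO3 and PHO5 differ most, from base 634 to base 693, are printed to show this, with capitals where a gene differs from PHO5.
PHO5 (chrII:430259-430318, minus strand): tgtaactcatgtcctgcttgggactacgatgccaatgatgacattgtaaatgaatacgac
PHO3 (chrII:428409-428468, minus strand): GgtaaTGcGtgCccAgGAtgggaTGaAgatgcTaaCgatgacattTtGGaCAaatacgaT
PHO11 (chrI:226093-226152, plus strand): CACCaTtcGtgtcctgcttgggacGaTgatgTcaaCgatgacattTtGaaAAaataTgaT
PHO12 (chrVIII:552732-552791, plus strand): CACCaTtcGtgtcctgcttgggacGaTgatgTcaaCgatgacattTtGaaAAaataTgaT
PHO3 differs from PHO5 at 19 of these bases, and PHO11 and PHO12 differ from it at 16 and not from each other. No member overlaps another annotated gene.

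PHO5 encodes the main secreted acid phosphatase, which is repressed when phosphate is plentiful. Its level was 40.6 and 38.7 RPKM in control and 27.3 and 27.0 in serine. It was 39.4 and 43.9 RPKM in WT and 21.8 and 27.1 in CK2. The serine and CK2 replicates all lay below those of their own reference group. Groups did not overlap for 55% of all genes in serine against control and for 76.1% in CK2 against WT. In YBL574 the values were 43.5 and 37.8 RPKM, and in H3T11A they were 53.4 and 29.6, so the H3T11A replicates lay on either side of both YBL574 values. PHO5 had the smallest range among the members, 1.70-fold between the highest and the lowest group mean. The group means of WT, H3T11A, YBL574 and control lay between 39.7 and 41.6 RPKM, and each overlapped its neighbour in that order.

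PHO11 and PHO12 encode secreted acid phosphatases of the same kind. PHO11 lay at 7.13 and 5.95 RPKM in control, 6.08 and 5.54 in serine, 10.7 and 11.4 in WT and 11.8 and 8.52 in CK2. It was higher in YBL574, at 14.9 and 13.9 RPKM, and in H3T11A, at 14.6 and 13.4. Neighbouring groups in the order of PHO11 were apart between H3T11A and WT and between CK2 and control. PHO12 lay at 6.71 and 7.89 RPKM in control, 7.55 and 8.71 in serine, 8.54 and 10.96 in WT and 12.8 and 10.04 in CK2, and it too was highest in YBL574, at 18.0 and 14.8, and H3T11A, at 18.1 and 14.7. The pair had opposite signs in serine minus control (-0.14 for PHO11 and 0.14 for PHO12) and in CK2 minus WT (-0.12 and 0.21), and neither gene passed the threshold used below in either. Across the 12 replicates the log2 levels of the pair correlated with Pearson's r = 0.89, a value that shared reads could also give.

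PHO3 encodes an acid phosphatase that hydrolyses thiamine phosphates and is not induced by phosphate shortage. It had the widest split of the phosphatases. Its level was 27.5 and 26.0 RPKM in control, 55.9 and 40.5 in serine, and 40.1 and 53.3 in CK2. In WT it reached 185.4 and 178.5 RPKM, in YBL574 it reached 227.6 and 205.0, and in H3T11A it stood at 285.6 and 141.1. No replicate of the low 3 groups came near any of the high 3, and the group means spanned 8.09-fold. The high groups were those with high MFA2 and the low groups those with high MF(ALPHA)1, and whether this bears on PHO3 was not tested.

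PHO8 (chromosome IV, 1418550 to 1420250) encodes the alkaline phosphatase of the vacuole. It was abundant in all groups and spanned 2.02-fold, with 131.7 and 144.7 RPKM in control, 163.0 and 164.6 in serine, 108.6 and 115.9 in WT and 109.9 and 106.6 in CK2. The lowest values were 105.5 and 87.9 RPKM in YBL574 and 75.7 and 86.8 in H3T11A. Its order ran opposite to that of PHO11, with r = -0.91 over the 12 replicates, a description in which the replicates of a group share their condition.

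PHO84 (chromosome XIII, 24037 to 25800) encodes the high-affinity phosphate transporter that works with protons and is the main uptake route in starved cells. Its level was 134.7 and 131.0 RPKM in control and 137.6 and 139.5 in serine. In WT it was 246.0 and 262.2 RPKM, and in CK2 it was 272.8 in replicate 2 and 134.8 in replicate 3. The CK2 replicates thus differed 2.02-fold, more than all but 1.95% of the genes in that group, and lay above and below both WT values. In YBL574 it was 78.1 and 100.3 RPKM. In H3T11A it was 100.6 in replicate 1 and 27.1 in replicate 3, a 3.71-fold gap that 0.48% of the genes equalled or exceeded. The technical libraries stayed on their own side of that gap, at 87.5 and 113.7 RPKM for replicate 1 and 23.0 and 31.2 for replicate 3. PHO3 and PHO5 showed gaps of 2.02-fold and 1.81-fold in the same direction between these H3T11A replicates, while VTC3, PHO81, PHO11, PHO12 and PHO89 showed gaps of 1.23-fold or less. SPL2 and PHO8 went the other way, with replicate 1 at 0.713 and 0.872 times the level of replicate 3.

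PHO89 encodes the sodium-coupled high-affinity transporter and was the least abundant member in every group except CK2, where SPL2 and PHO11 lay below it. Its level was 1.37 and 0.938 RPKM in control, 1.79 and 1.08 in serine, 0.902 and 0.971 in YBL574 and 0.984 and 0.932 in H3T11A. In the order of their means each of these 4 groups overlapped the next, while both serine values lay above all YBL574 and H3T11A values. WT stood above them at 3.48 and 3.33 RPKM, and CK2 stood above WT at 10.5 and 12.2. The span between CK2 and YBL574, 12.1-fold, was the widest of the 10 genes. PHO89 lies 14.7 kb from the right end of chromosome II (796798 to 798522).

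PHO81 encodes the inhibitor of the Pho80-Pho85 kinase, and SPL2 encodes a small protein that lowers low-affinity phosphate uptake. PHO81 lay between 27.5 and 40.7 RPKM in all replicates of control, serine, WT and CK2. It was lower in YBL574, at 18.6 and 20.2 RPKM, with H3T11A between at 26.0 and 25.4. SPL2 lay at 10.4 and 16.8 RPKM in control and 13.3 and 14.3 in serine, and at 5.15 and 8.51 in WT and 11.01 and 7.16 in CK2. Its lowest levels were 5.43 and 5.47 RPKM in YBL574 and 3.64 and 5.10 in H3T11A. Within control and within WT the SPL2 replicates lay farther apart than the step to the next group mean, and the step from YBL574 to H3T11A was the only one between neighbouring groups without overlap. PHO81 lies on chromosome VII (954674 to 958210) and SPL2 on chromosome VIII (374654 to 375100).

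VTC3 (chromosome XVI, 514511 to 517018) encodes a subunit of the vacuolar polyphosphate polymerase. Its level was 82.1 and 73.1 RPKM in control, 75.9 and 86.6 in serine, 62.1 and 63.98 in WT and 69.2 and 60.7 in CK2. YBL574 was the low group, at 39.1 and 43.1 RPKM, and H3T11A lay near WT at 68.2 and 58.7. Every H3T11A value lay above every YBL574 value, and these groups did not overlap for 65.5% of all genes.

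**Figure D2:**
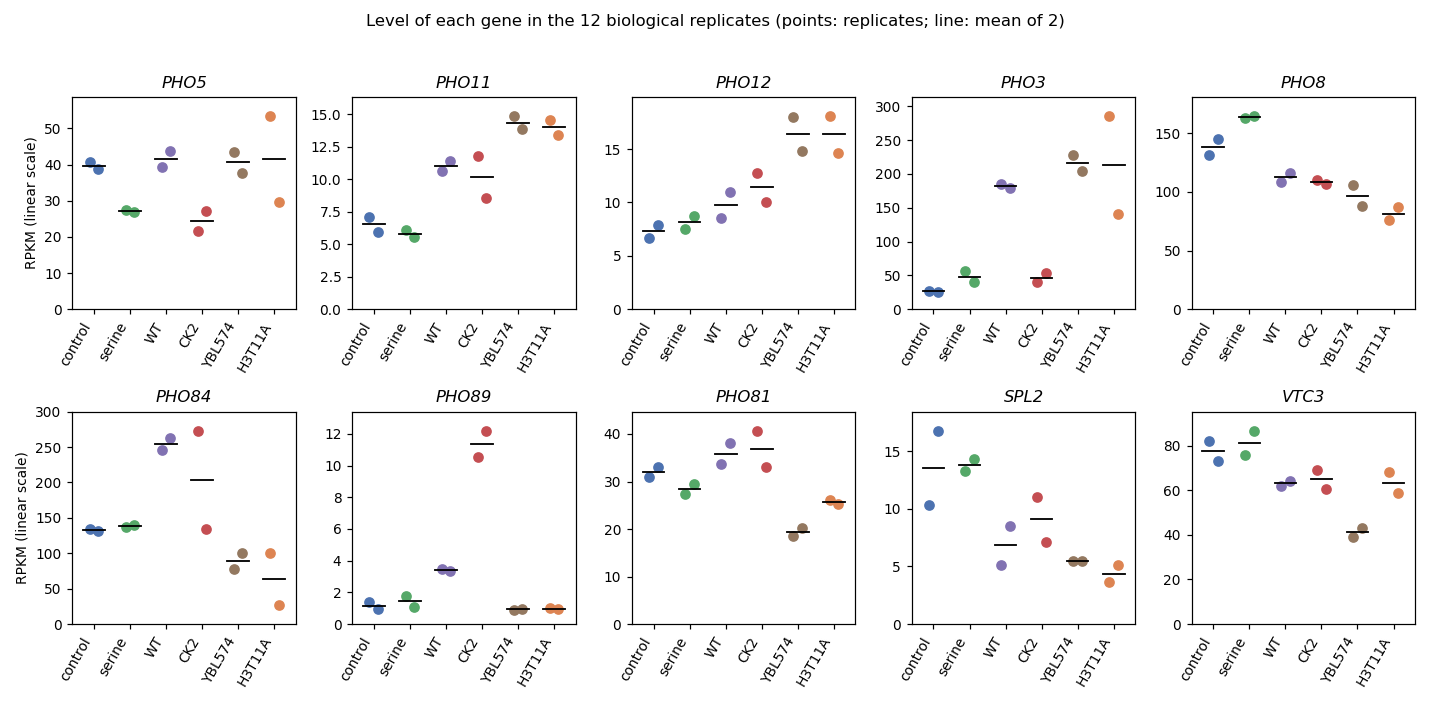
RPKM of each gene on a linear axis from 0 in the 2 biological replicates of each of the 6 groups (points), with the group mean as a line. PHO3 splits into low groups (control, serine, CK2) and high groups (WT, YBL574, H3T11A), PHO89 peaks in CK2 at 10.5 and 12.2 RPKM, and the H3T11A replicates of PHO84, PHO3 and PHO5 lie far apart.

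Differences between groups were estimated on the scale of log2(RPKM + 1) in a linear model over all genes fitted with limma, with Benjamini-Hochberg adjustment over 6727 genes and a threshold of 0.05. All 10 members passed the filter on low values. In serine against control, 90 genes (1.34% of those tested) passed the threshold, and none of the 10 members was among them, while 934 genes had an unadjusted p under 0.05. PHO3 had a log2 fold change of 0.81 ± 0.29 (SE), from a mean of 26.7 to 48.2 RPKM, and PHO5 one of -0.53 ± 0.23, from 39.7 to 27.1 RPKM. Neither passed, although in both the replicates of the groups did not overlap, as in 55% of all genes. With weights for the samples, which limma estimates from their residuals, both would pass. The transporters and VTC3 had values of 0.06 ± 0.51 for PHO84, 0.17 ± 0.19 for PHO89 and 0.07 ± 0.12 for VTC3. Each SE pools the spread of all groups in the fit. The PHO84 replicates differed on the log2 scale by 0.04 in control and -0.02 in serine, but by 1.01 in CK2 and 1.85 in H3T11A. The median over the 10 members was 0.06, beside 0.00 over all genes.

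In CK2 against WT, 31.0% of all genes passed and 3 of the 10 members did, a share from which nothing is read. PHO89 was higher by 1.49 ± 0.19, from 3.40 to 11.4 RPKM or 3.34-fold. PHO3 was lower, at -1.95 ± 0.29, from 182.0 to 46.7 RPKM. PHO5 was lower, at -0.75 ± 0.23, from 41.6 to 24.4 RPKM. The call of PHO5 was lost when any 1 of the 4 replicates was left out, with log2 fold changes between -0.90 and -0.60, whereas PHO3 and PHO89 kept theirs. For PHO84 the value of -0.40 ± 0.51 ranged from -0.91 without CK2 replicate 2 to 0.10 without replicate 3. Those 2 replicates also differed in the share of signal on mitochondrial genes, 0.3% in replicate 2 and 3.8% in replicate 3, against 6.8% and 5.5% in WT, and its part in the result was not tested. The other 6 members lay between -0.12 and 0.37. The genes of chromosome V, which holds no member, had a median of 0.91 over 289 genes in this comparison, beside 0.01 over all genes.

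In H3T11A against YBL574, 40.7% of all genes passed and 2 of the 10 members did, both higher, and nothing is read from that share. VTC3 was higher by 0.61 ± 0.12, from 41.1 to 63.4 RPKM, and PHO81 by 0.39 ± 0.11, from 19.4 to 25.7 RPKM. VTC3 kept its call when any replicate was left out, and PHO81 lost it without YBL574 replicate 2 and without YBL574 replicate 3. When these groups were fitted alone, or with sample weights, no member passed. The split between the H3T11A replicates decided the values of others. PHO84 stood at -0.74 ± 0.51 with both, at -1.67 without replicate 1 and at 0.18 without replicate 3. Without replicate 1, PHO3, PHO5 and PHO84 also passed as lower, and without replicate 3, PHO5 passed as higher and PHO8 as lower. The most abundant RNA of the table, SCR1 of the signal recognition particle, stood at 139800 and 164200 RPKM in H3T11A and at 76670 to 94510 in all other replicates. Its part in the values was not tested.

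YBL574 and WT are both reference groups, of separate experiments, so strain and experiment cannot be told apart in their comparison. Here 54.9% of all genes passed, and the median of all genes was itself shifted to -0.36. Of the 10 members 5 passed, and nothing is read from that share. PHO84 was lower, at -1.51 ± 0.51 (254.1 to 89.2 RPKM), as were PHO89 at -1.19 ± 0.19 (3.40 to 0.936 RPKM), PHO81 at -0.85 ± 0.11 (35.9 to 19.4 RPKM) and VTC3 at -0.61 ± 0.12 (63.0 to 41.1 RPKM). PHO12 was higher by 0.70 ± 0.17, from 9.75 to 16.4 RPKM. Relative to the median of all genes, PHO84 stood at -1.15, PHO89 at -0.82, PHO81 at -0.49, VTC3 at -0.24 and PHO12 at 1.06. With a scaling that removed that shift, by the upper quartile or by the median of ratios, PHO84 and VTC3 no longer passed, at -1.06 and -0.16 with the former, PHO11 passed as higher at 0.77, and PHO5, PHO8 and SPL2 went from negative to positive values. The call of PHO84 was also lost without any 1 of the 4 replicates. That of PHO12 was lost without replicate 2 of either group.

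WT against control sets the reference groups of the CK2 and serine experiments beside each other. Both are labelled wt, yet they differed in the pheromone genes and in CHA1, at 1.81 and 2.17 RPKM in control and 333.8 and 407.5 in WT. Experiment, mating type and any unlabelled difference of strain or growth cannot be told apart in this comparison, here or in the lists below. Of all genes 59.0% passed, with a median of 0.17, and 5 of the 10 members did, from which nothing is read. PHO3 was higher by 2.72 ± 0.29, from 26.7 to 182.0 RPKM or 6.81-fold, the largest difference of any member. PHO89 was higher by 1.04 ± 0.19, from 1.15 to 3.40 RPKM, and PHO11 by 0.68 ± 0.15, from 6.54 to 11.03 RPKM. SPL2 was lower, at -0.89 ± 0.28, from 13.6 to 6.83 RPKM, and so was PHO8, at -0.30 ± 0.11, from 138.2 to 112.3 RPKM. PHO8 lost its call without any 1 of the 4 replicates, with upper-quartile scaling and with the first technical libraries alone. SPL2 lost its call without WT replicate 2 or control replicate 3 and when these groups were fitted alone. VTC3, at -0.29 ± 0.12, did not pass here but passed as lower with either scaling, with the groups fitted alone and with sample weights. PHO84 stood at 0.93 ± 0.51, with the SE pooled over all groups, from 132.9 to 254.1 RPKM, without passing. Its groups did not overlap, as in 84.4% of all genes. It passed as higher when these groups were fitted alone or with sample weights. PHO5 at 0.07 ± 0.23 and PHO81 at 0.16 ± 0.11 turned slightly negative once the median of all genes was taken off.

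**Figure D3:**
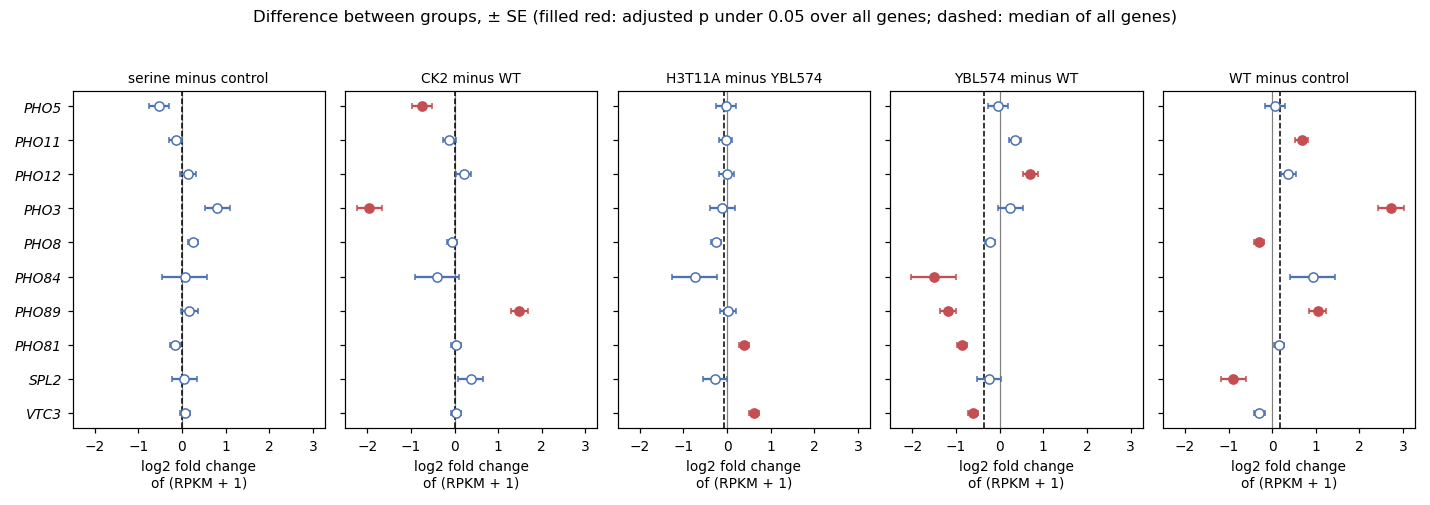
Log2 fold change of (RPKM + 1) ± SE for each gene in the 5 comparisons, on a shared horizontal axis, with filled red points for genes past the threshold over all 6727 genes and a dashed line at the median of all genes. PHO3 ranges from -1.95 in CK2 minus WT to 2.72 in WT minus control, and the dashed line is shifted to -0.36 in YBL574 minus WT.

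The repeat libraries show how far the members differed between libraries of the same RNA. Over the 4 pairs made from the same RNA, 8 of the 10 members were higher in the second library every time, as were 31.5% of the 6727 genes, while the median log2 difference of all genes was 0.00. PHO5 was 1.35 to 1.59 times as high in the second library, a mean difference that 4.8% of genes reached. PHO84 was 1.30 to 1.38 times as high and PHO3 was 1.13 to 1.33 times as high. PHO8 was hardly moved, at 1.03 to 1.08, and PHO81 lay between 0.93 and 1.13. PHO89, with the fewest reads, ranged most widely, from 0.89 to 2.04, and SPL2 ranged from 1.08 to 1.52. Across 5913 genes, which are not independent, the mean difference between the libraries correlated with GC content at a Spearman rho of 0.295. The coding sequences of the members held 35.8% G and C in PHO81 and 36.1% in VTC3, and 40.8% to 43.8% in the other 8. Control, serine, WT and CK2 had a single library per replicate. With the first libraries alone, the YBL574 minus WT value was -0.38 for PHO5 in place of -0.03, 0.22 for PHO11 in place of 0.35 and 0.06 for PHO3 in place of 0.25.

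**Figure D4:**
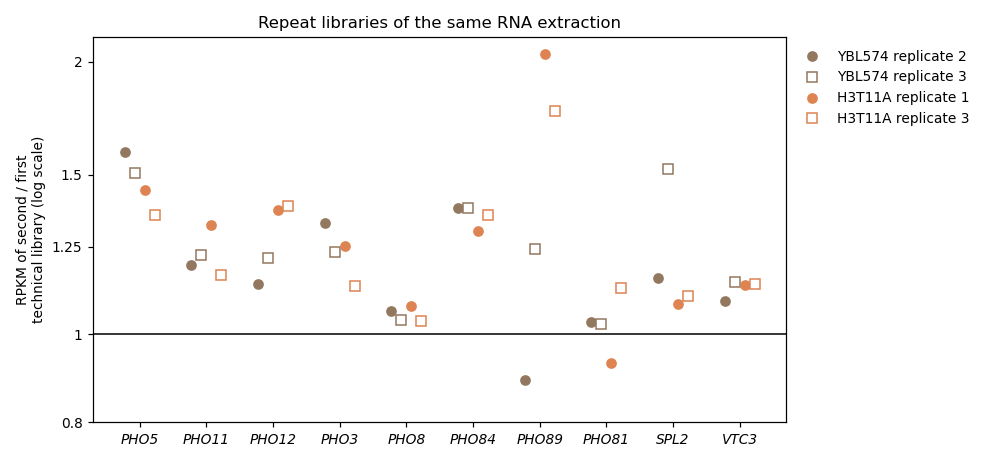
RPKM of the second technical library divided by that of the first, on a log axis, for the 4 RNA extractions sequenced as a pair. PHO5 lies between 1.35 and 1.59 and PHO84 between 1.30 and 1.38, whereas PHO8 and PHO81 lie near 1. PHO89 spreads most, from 0.89 to 2.04.

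The regulators of the pathway are not members and were tested. They and the pathway and thiamine lists below were, like the members, chosen with earlier results of these data known, which limits what their p-values can show. PHO4, the activator, was lower in CK2 (18.2 and 18.8 RPKM) than in WT (35.1 and 32.5), with a log2 fold change of -0.83 (limma adjusted p = 0.00144). PHO2, its partner, was higher in CK2 by 0.72 (limma adjusted p = 0.0259) and PHO85, the kinase, by 0.34 (limma adjusted p = 0.0127). PHO4 kept its call with any 1 replicate left out, PHO85 lost it without replicate 3 of either group, and PHO2 lost it without any 1 of the 4. The cyclin gene PHO80 was at 34.1 and 36.4 RPKM in CK2 and at 36.3 and 32.0 in WT, and did not pass. In H3T11A, PHO80 fell from 25.5 and 23.9 RPKM in YBL574 to 11.1 and 16.6 (limma adjusted p = 0.00474). PHO85 fell from 38.0 and 37.7 RPKM to 23.9 and 25.1 (limma adjusted p = 0.0007), and PHO2 rose from 13.3 and 14.6 RPKM to 21.5 and 36.7 (limma adjusted p = 0.00626). These 3 calls held with any 1 replicate left out and were lost when the pair of groups was fitted alone. PHO4 stood at 27.2 RPKM in YBL574 and 27.1 in H3T11A. None of the 4 regulators passed in serine against control. In WT against control, PHO4 rose from 16.6 to 33.8 RPKM, PHO2 fell from 37.4 to 17.2 RPKM, and PHO85 fell from 74.2 to 50.3 RPKM, all past the threshold. In YBL574 against WT, PHO85 and PHO80 were lower by 0.40 and 0.45 on the log2 scale, close to the shift of all genes, and neither passed once that shift was scaled out.

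The wider pathway was followed in 30 genes that are not members, for transport, polyphosphate and signalling, all of them tested. PHO2, PHO4, PHO80 and PHO85 are among the 30 and are counted again here. In serine against control 1 of the 30 passed, beside 1.34% of all genes. This was GIT1, a transporter of glycerophosphoinositol and phosphate, which fell from 229.1 and 219.8 RPKM to 107.1 and 108.0 (limma adjusted p = 0.024), a call lost without any 1 of the 4 replicates. In CK2 against WT, 8 were higher and 9 lower, with a median of -0.15, beside 31.0% called over all genes and a median of 0.01. Among them PHO90, a low-affinity phosphate transporter, fell from 64.4 to 33.1 RPKM, and PHM7 from 14.98 to 6.74 RPKM. GIT1 rose from 3.17 to 7.05 RPKM and PHO92, an RNA-binding protein, from 1.37 to 3.67 RPKM. VTC1, a polyphosphate polymerase subunit, rose from 166.4 to 300.4 RPKM and PIC2, a mitochondrial phosphate carrier, from 105.5 to 208.3 RPKM, and both lie on chromosome V, whose genes were shifted as a whole. Of these 6, GIT1 kept its call with any 1 replicate left out, PHM7 and VTC1 lost it without CK2 replicate 2, PHO90 without replicate 2 of either group, PHO92 without CK2 replicate 3 or either WT replicate, and PIC2 without any 1 of the 4.

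In H3T11A against YBL574, 7 of the 30 were higher and 8 lower, with a median of -0.07, beside 40.7% called over all genes and a median of -0.06. PHM6 had the largest difference, from 7.36 and 6.20 RPKM to 1.13 and 0.615, a log2 fold change of -2.06 (limma adjusted p = 0.00158). PPN2, a vacuolar endopolyphosphatase, fell from 81.5 to 39.6 RPKM, and VTC4, the catalytic subunit of the polyphosphate polymerase, was at 72.5 and 71.2 RPKM in YBL574 and at 115.0 and 106.8 in H3T11A. VTC3 and VTC4 were thus higher in every H3T11A replicate than in any YBL574 replicate, and 65.5% of all genes had groups that did not overlap. VTC5 went the other way, from 35.0 to 20.9 RPKM, and passed as lower. VTC1 and VTC2 had positive values without passing. SYG1, a phosphate exporter, fell from 76.2 to 43.8 RPKM, and PHO92 rose from 1.73 to 4.28 RPKM, a call that held only without H3T11A replicate 1 among the fits with a replicate left out. When these groups were fitted alone, the calls of PPN2, VTC4, VTC5, SYG1 and PHO92 were lost. With sample weights those of PHM6, VTC4, VTC5 and PHO92 were lost. In YBL574 against WT, 1 was higher and 15 lower, with a median of -0.35, beside 54.9% called over all genes and their shift of -0.36. The 1 higher gene was GIT1, from 3.17 to 6.61 RPKM. DIA3, a relative of the acid phosphatases, fell from 16.3 to 4.38 RPKM, PHM8, a phosphatase of nucleotides, from 83.3 to 25.8 RPKM, and PHM6 from 18.2 to 6.78 RPKM. PHM7 fell from 14.98 to 6.82 RPKM, the exopolyphosphatase gene PPX1 from 49.95 to 24.6 RPKM, and KCS1, an inositol hexakisphosphate kinase, from 75.9 to 39.2 RPKM. With the shift removed by either scaling, PHM6 and PHM7 no longer passed, and PHM6 was also lost without replicate 3 of either group. In WT against control, 9 were higher and 11 lower, beside 59.0% called over all genes. GIT1 fell from 224.4 to 3.17 RPKM, the largest change of the list at -5.77 (limma adjusted p = 4.57e-08), and PHO90 rose from 13.6 to 64.4 RPKM (limma adjusted p = 3.85e-05). PHM7 fell from 94.5 to 14.98 RPKM, PIC2 from 491.2 to 105.5 RPKM, PHM8 from 321.7 to 83.3 RPKM and GDE1, a glycerophosphodiesterase, from 60.6 to 22.8 RPKM. All 6 calls held in each of the 12 alternatives.

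PHO3 belongs by function to thiamine uptake, so 15 thiamine genes were set beside it. In WT against control 11 of the 15 were lower and 1 higher, with a median of -0.86, beside 59.0% called over all genes (2480 higher and 1486 lower) and a median of 0.17. THI4, which makes the thiazole part of thiamine, fell from 55.5 and 94.6 RPKM to 6.36 and 8.01 (limma adjusted p = 4.39e-05). THI20, a kinase of the pyrimidine branch, fell from 236.6 and 244.9 RPKM to 25.6 and 27.6 (limma adjusted p = 1.41e-07). THI2, an activator of the thiamine genes, fell from 43.4 to 9.42 RPKM and PET18 from 30.6 to 7.92 RPKM, and THI5 and THI12 fell from 15.6 and 19.6 RPKM to 2.03 and 3.02. These 6 calls held in each of the 12 alternatives. PHO3 was 6.81-fold higher in the same comparison, opposite to these genes. In CK2, however, PHO3 (46.7 RPKM), THI4 (9.41 RPKM) and THI20 (27.1 RPKM) were all low. In serine against control THI20 rose from 240.8 to 375.0 RPKM (limma adjusted p = 0.0351) and THI21 from 18.6 to 27.1 RPKM (limma adjusted p = 0.0466), both lost without any 1 of the 4 replicates, and PHO3 had a positive value without passing. In CK2 against WT, THI7, the plasma membrane thiamine transporter, fell from 79.0 to 43.6 RPKM, THI2 from 9.42 to 6.37 RPKM, and PET18 rose from 7.92 to 11.7 RPKM. Each of these 3 calls was lost without CK2 replicate 3 and in at least 1 other fit with a replicate left out. In H3T11A against YBL574, THI7 rose from 33.5 to 67.5 RPKM and 5 genes were lower, beside 40.7% called over all genes. These were THI2 (8.79 to 4.86 RPKM), THI80 (19.9 to 12.6), THI11 (9.05 to 6.37), THI3 (22.9 to 17.7) and THI72 (6.61 to 4.97). THI7 and THI2 kept their calls with any 1 replicate left out, and the other 4 lost theirs without YBL574 replicate 3. All 6 calls were lost when these groups were fitted alone, and all but that of THI80 with sample weights. In YBL574 against WT, 6 were higher and 6 lower, beside 54.9% called over all genes. THI4 rose from 7.18 to 20.2 RPKM, THI7 fell from 79.0 to 33.5 RPKM, and THI5, THI11, THI12 and THI13 each rose, THI11 from 3.71 to 9.05 RPKM. THI5, THI11, THI12 and THI13 are near copies of each other, so their own values are uncertain. None of the 15 held CACGTG in the 1000 bases upstream, and 4 held CACGTT, whereas 13 and 15 of the 30 pathway genes held them.

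**Figure D5:**
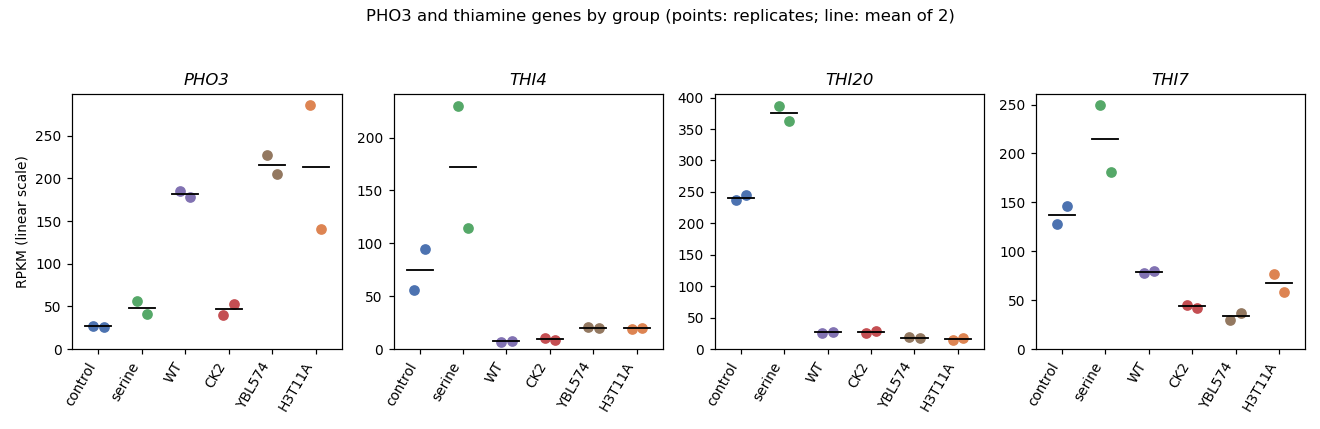
RPKM of PHO3 and of the thiamine genes THI4, THI20 and THI7 in the 2 replicates of each group (points) with the group mean (line), each on a linear axis from 0. THI4 and THI20 are highest in control and serine, where PHO3 is low, and are low in CK2, where PHO3 is low as well, and all 3 thiamine genes are below their control level in WT, where PHO3 is at 182.0 RPKM.

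The members did not move as 1 block. Over the 12 replicates, the log2 levels of PHO8 and SPL2 correlated at r = 0.91, those of PHO84 and PHO81 at 0.68, and those of PHO81 and VTC3 at 0.67. PHO5 had r = 0.56 with PHO3, 0.36 with PHO11 and 0.26 with PHO12, its fellow acid phosphatases, and -0.07 with PHO84. PHO3 had r = 0.83 with PHO11 and 0.74 with PHO12. These values describe 6 conditions with 2 replicates each, which are not independent of each other, and no p is given. Among the genes that are not members, those whose levels followed PHO84 most closely over the 12 replicates were PFK27 (r = 0.977), MRPL36 (0.972), NMT1 (0.970), LSM1 (0.961) and RSM7 (0.958). PFK27 ran from 162.7 RPKM in WT to 48.4 in H3T11A and MRPL36 from 133.4 to 55.4, as PHO84 ran from 254.1 to 63.8.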

How the data were processed

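Total RNA was sequenced in 16 libraries. The values, RPKM in 1 table as deposited, are reads normalized to gene length and library size. The submitters' processing notes name CASAVA 1.8.2, TopHat2 2.0.13, edgeR and the sacCer3 assembly, without their roles. The annotation, the counting and whether it used strand are not given in the sources used here. The members and the gene lists were chosen with earlier results of these data known. The title of 1 CK2 library gives replicate 2 and its description gives another number, and the title was followed.

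Here, technical libraries were averaged. The 6727 genes that reached an RPKM of 1 in 2 or more replicates were fitted as log2(RPKM + 1), a scale that understates changes of low genes, with limma 3.58.1 (lmFit, eBayes with trend) in R 4.3.3. All 6 groups entered 1 fit with 6 residual degrees of freedom, and tests were two-sided. A count test was not used because the values are not counts. Read totals were fitted from the steps of low values, of which 96.7% to 98.7% came within 0.1 of a whole read. Floors given in reads cover counting error only, while each SE comes from the spread between replicates in the limma fit. The fit was tested on simulated data for CK2 against WT only, with the same SD per gene in all groups. That test could not show how unequal spread between groups affects the calls. Named genes were all members, PHO2, PHO4, PHO80 and PHO85, up to 6 genes per list and comparison by size of change among those past the threshold, and the 5 genes most correlated with PHO84. VTC2, VTC4, VTC5, VTC1 in H3T11A against YBL574, and GIT1 in YBL574 against WT were named after their values were seen. Names, positions and sequences came from RefSeq on R64, the same assembly as sacCer3, to which 6079 identifiers matched. Alternatives covered the pseudocount, the filter, the scaling, the samples in the fit, sample weights, the technical libraries, the replicate numbers and each replicate left out.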

Additional observations from a re-analysis of the deposited data

How the results depend on the processing

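Recomputing the members' log2 fold changes under the alternatives gave 600 values, of which 566 stayed within the spread between replicates. Of the rest, 34 moved beyond it and 0 reversed after a call, and 22 of the 34 were in YBL574 minus WT. As that spread was defined, leaving out 1 replicate could not move a value beyond it. PHO84 in H3T11A minus YBL574 went from -1.67 to 0.18 and still counted as within. Dropping the filter, fitting the groups alone, the block and sample weights left the log2 fold changes unchanged. The 566 are therefore no measure of stability. In serine minus control, sample weights raised the calls over all genes to 800, with 2 members, 3 pathway genes and 7 thiamine genes. The fit of these groups alone called 2 pathway genes. It called 1 thiamine gene, as did a pseudocount of 0.1, no filter and median-of-ratios scaling, and upper-quartile scaling called 0. Leaving out 1 replicate gave 15 to 23 calls over all genes and 0 each time in the pathway and the thiamine list. The replicate numbers do not pair the samples by design. With the replicate number as a block, 0 genes passed in serine minus control, pathway and thiamine genes included (1162 at an unadjusted p under 0.05). The crossed pairing, chosen after seeing the data because the deviations of same-numbered samples correlated at -0.153, likewise gave 0 over all genes, the pathway list and the thiamine list (1547 unadjusted). The block also gave 8 members in WT minus control and 1 thiamine gene in CK2 minus WT, where GIT1 no longer passed. No paired analysis was possible for H3T11A minus YBL574, because these groups share 1 replicate number.

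In CK2 minus WT, sample weights gave 3431 calls over all genes and 6 thiamine genes, and leaving out 1 replicate gave 1062 to 1270 over all genes, 6 to 9 pathway genes and 0 to 2 thiamine genes. In H3T11A minus YBL574, the fit of these groups alone gave 224 calls over all genes, 0 members, 1 pathway gene and 0 thiamine genes, and sample weights gave 897, 0, 7 and 1. Leaving out 1 replicate gave 1656 to 4008 calls over all genes, 1 to 5 members and 2 to 9 thiamine genes. In YBL574 minus WT, upper-quartile scaling gave 2302 calls over all genes, 10 pathway and 7 thiamine genes, and median-of-ratios scaling gave 2403, 8 and 7. The share of calls that were higher there went from 11.7% to 57.4% and 50.1%. That share went from 52.8% to 64.7% with upper-quartile scaling in CK2 minus WT, and from 62.5% to 51.2% with median-of-ratios scaling in WT minus control. Leaving out 1 replicate gave 3 to 4 members in YBL574 minus WT and 3 to 4 in WT minus control, where sample weights gave 8. The causes were not tested. Depth limits PHO89 and SPL2 most, with as few as 15 and 20 reads in a library.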
